A study of Saccharomyces cerevisiae with 593 samples.

Results

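Most spliced genes of Saccharomyces cerevisiae carry a single intron, and a small number carry 2. Of the genes with 2 introns, 5 were chosen by name: DYN2, SUS1, TAD3, YOS1 and VMA9. The chosen spots were those whose gene symbol in the array's probe annotation is one of these names, kept apart by oligo, with the 6 copies of an oligo averaged. DYN2 (YDR424C), TAD3 (YLR316C) and YOS1 (YER074W-A) had 3 oligos each, that is 9 of 1457 named oligos and 3 of 982 genes. SUS1 and VMA9 were not analysed here. The oligos are numbered by their position on the array. The annotation used does not say which of them reads an exon, an intron or a splice junction, so each oligo is described by its own values.

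A gene with 2 introns has to be spliced at both before its mRNA is complete, and in yeast the order and efficiency of the cuts can differ between the introns of a transcript. Arrays that carry several oligos for a gene were designed to follow spliced and unspliced RNA separately, because signals from an intron and from an exon can move apart when splicing changes. DYN2 encodes the light chain of dynein, the minus-end-directed microtubule motor, and is also part of the nuclear pore complex. TAD3 encodes a subunit of the deaminase that, together with Tad2, converts adenosine to inosine in the anticodon of tRNAs. YOS1 encodes a small membrane protein needed for vesicle transport from the endoplasmic reticulum to the Golgi.

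The series holds 593 2-colour arrays on total RNA from 311 pairs of RNA extracts, most of them hybridised again with the dyes exchanged. Wild-type cells (394 arrays) and cells with deletions of hog1, rrp6, edc2, ckb1, ckb2, both ckb1 and ckb2, cka1 or cka2 were compared, as were a his3 strain and the same background with HIS3 repaired. Treated cells were sampled at 5, 10, 20 and 40 min and occasionally at 15 or 60 min. A value is the log2 ratio of the treated to the control RNA, and no intensities were used, so no level of a transcript is given. The doses were KCl 1 M, NaCl 0.5 M, LiCl 300 mM, sorbitol 1 M, 3-aminotriazole (3AT) 50 mM, TBB 20 uM, rapamycin 200 ng/mL, sulfometuron methyl (SMM) 5 ug/mL, wortmannin 1 mg/mL, DTT 1 or 10 mM and a shift to 42 C. Depletions of amino acids, glucose, inositol, nitrogen, phosphate and histidine complete the treatments. The control was mock treated RNA of the same strain and time for salts, heat, wild-type SMM and the depletions. It was pre-treatment RNA for 3AT, wortmannin, DTT, TBB, wild-type rapamycin and SMM in cka1, cka2, ckb1 or ckb2 cells. Exceptions are named where they occur. Control cells carry the same deletion as the treated cells unless a comparison is written as mutant over wild type. The labels do not say whether replicates came from separate cultures, so the spread between them may be technical.

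In background terms, Hog1 is the kinase of the osmotic stress pathway, Rrp6 is an exonuclease of the nuclear exosome, and Edc2 promotes decapping of mRNA. Ckb1 and Ckb2 are the regulatory subunits of casein kinase 2, of which Cka1 and Cka2 are the catalytic subunits, and TBB inhibits that kinase. Rapamycin blocks the TOR kinase, wortmannin blocks lipid kinases, and 3AT and SMM block histidine and branched-chain amino acid synthesis.

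Groups of arrays whose titles open with the same code are called batches A to I. All 28 values of batch B, and 1 value of batch G, came from extracts hybridised in a single dye orientation. In batch C, 7 pairs of extracts carry treated RNA as channel 2 in the labels. Over all oligos they correlated below 0, as labelled, in 11 of 12 pairings with the other replicates of their own groups (r from -0.89 to 0.02). Their direction is therefore not settled, and they were left out, with their values as labelled given beside the results they touch. Array medians lay between -0.04 and 0.05, and 0.0326% to 64.1% of the spots of an array had no value, with a median of 4.64%. The RRP6 oligo read -3.40 to -0.85 in the 13 comparisons of rrp6 with wild type. A total of 76 groups with 2 or more replicates entered the fit, with 185 values.

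Few of the tests on the 9 oligos passed. At 20 min, across 18 comparisons, 14 of 162 tests of these oligos passed the threshold (adjusted p under 0.05, limma, two-sided), 9 of them higher and 5 lower. That is 8.64%, beside 19.3% of all tests of named oligos at that time, of which 9.52% were higher and 9.75% lower. At 5, 10 and 40 min, 41 of 468 tests passed (8.76%, beside 16.2% of all tests, 8.12% higher and 8.08% lower), 28 higher and 13 lower. The median size of the mean log2 ratio was 0.11 for the members and 0.16 for all oligos at 20 min. These shares describe 9 oligos of 3 genes, which share arrays and transcripts.

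Each gene held at least 1 oligo that passed at 20 min. DYN2 had 3 of 54 tests called, TAD3 5 of 54 and YOS1 6 of 54. DYN2 oligo 2 was called in none of the 18 comparisons at 20 min, although it was called in 8 of 52 at the other times. In the whole series, 73% (TAD3 oligo 2) to 92.4% (YOS1 oligo 2) of the replicate values of an oligo lay within 0.3 of 0. The copies of an oligo on an array differed least for TAD3 oligo 2 (median SD 0.0895) and most for TAD3 oligo 1 (0.309). TAD3 oligo 1 also lacked the largest share of its spots among the 9, at 17.3%.

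**Figure D1:**
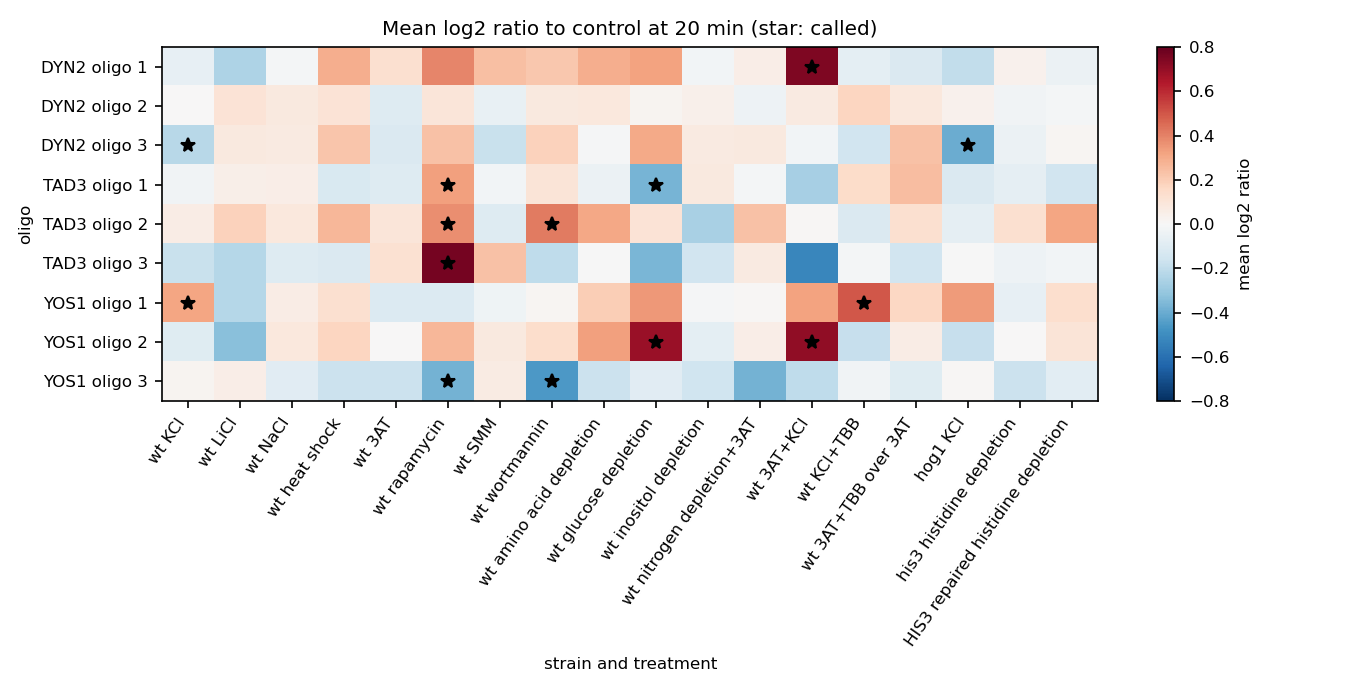
Mean log2 ratio to control at 20 min for the 9 oligos (rows) in the 18 comparisons (columns). Red is higher and blue lower, the colour scale ends at 0.8 in each direction, and a star marks a mean with an adjusted p under 0.05. The 14 stars fall in 7 of the 18 columns and none in the row of DYN2 oligo 2.

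Within these genes the oligos correlated weakly, at 0.44 at most. Across the means of all groups of treated over control cells of the same strain, the correlation between oligos of a gene was -0.02 for DYN2 oligos 2 and 3 and 0.44 for DYN2 oligos 1 and 3. It was 0.185 for DYN2 oligos 1 and 2. For TAD3 it was 0.08 between oligos 1 and 2, 0.02 between oligos 1 and 3 and 0.01 between oligos 2 and 3. For YOS1 it was 0.23 between oligos 1 and 2 (-0.21 without batch B) and -0.22 between oligos 2 and 3 (-0.31 without batch B). Between YOS1 oligos 1 and 3 it was 0.09. These values are descriptions, since the groups share arrays, controls and batches. The like values for other genes of the array were not determined.

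The test of an oligo against the mean of the other oligos of its gene asks directly whether signals within a gene moved apart. At 20 min it passed in 11 of 162 tests of the members, or 6.79%, beside 15.4% of all such tests over 710 oligos. YOS1 took 10 of the 11, DYN2 1 and TAD3 none at that time. At 5, 10 and 40 min, 47 of 468 passed (10.0%, beside 15.2%), of which 23 were YOS1, 14 TAD3 and 10 DYN2.

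High KCl gave the clearest pattern with more than 2 replicates, and it split by oligo. YOS1 oligo 1 rose in wild-type cells. At 5 min the 3 replicates read 0.58, 0.30 and 0.10. At 10 min the 4 replicates read 0.49, 0.51, 0.09 and 0.37, and at 20 min they read 0.39, 0.35, 0.16 and 0.37. All of these values were above 0, and the lowest at each time was a batch G value. The mean at 20 min was 0.32 ± 0.10 (SD, n = 4), with an adjusted p of 0.0247, in a comparison where 37% of all oligos were called. The mean stayed near 0.30 but did not pass without the batch A value (0.29), the higher batch G value (0.31) or the batch H value (0.30). At 5 min the mean was 0.33 (adjusted p 0.0465, 36.4% of all oligos called) and at 10 min 0.37 (adjusted p 0.00736, 42.1% called).

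At 40 min the YOS1 oligo 1 replicates read 0.39, 0.19, 0.09 and 0.31, which did not pass, and the single value at 60 min was -0.04. A single comparison with pre-treatment cells, from batch I, read 0.80 at 20 min in KCl. Over all 37 comparisons of KCl-treated cells with their own controls, YOS1 oligo 1 was above 0 in 35, with a median of 0.31. In wild type this was 16 of 17, and in the other strains 19 of 20. These counts, and those given below over the 37 comparisons, include several times of a course. The like counts over all oligos were not determined.

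In the deletion strains YOS1 oligo 1 was above 0 in all but 1 value. In hog1 cells the batch A values were 0.40, 0.42, 0.44 and 0.41 at 5, 10, 20 and 40 min, and the batch G values 0.17, 0.15, 0.24 and -0.01. In rrp6 cells the single values were 0.45, 0.64, 0.49 and 0.71. In edc2 cells they were 0.23, 0.36, 0.25 and 0.23, and in ckb1ckb2 cells 0.15, 0.30, 0.19 and 0.16. The difference between hog1 and wild type at 20 min was 0.02 (95% interval -0.38 to 0.42), an interval that leaves room for a difference as large as the rise itself. No oligo of the array passed in that difference by limma (0% called), none of the 9 had an unadjusted p under 0.05, and within batches it was 0.05 in A and -0.01 in G.

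At 20 min, LiCl gave values on the other side of 0 for YOS1 oligo 1. LiCl at 20 min read -0.29 in batch H and -0.16 in batch F, with no value for the other batch H replicate, whose arrays lacked 54.3% to 64.1% of their spots. Both values lay below all 4 KCl values at that time. The difference between KCl and LiCl was 0.54 (SE 0.20, 95% interval 0.14 to 0.94, adjusted p 0.0253), in a comparison where 38.2% of all oligos differed. That difference did not pass without either LiCl replicate. Within batch H, the only batch holding both salts over mock treated cells at 20 min, 1 KCl value stood 0.65 above 1 LiCl value. Batch I also holds both salts at 20 min, but over pre-treatment cells, and was not part of this difference. At the other times the LiCl values ranged from -0.26 to 0.32, and NaCl at 20 min read 0.00 and 0.12. Sorbitol read 0.15, 0.10, 0.03 and 0.00 from 5 to 40 min, with no replicate.

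YOS1 oligo 1 also rose where KCl was combined with another agent. With TBB, the 20 min values were 0.57 and 0.42, a mean of 0.50 (adjusted p 0.0173, 23.7% of all oligos called), which did not pass on either value alone. The means at 5 and 10 min were 0.43 and 0.44, which also passed (27.2% and 25.4% called). With 3AT, the 10 min values were 1.80 in batch B and 0.75 in batch E, a mean of 1.27. The 5 min values were 0.46 and 0.84 and the 40 min values 0.79 and 0.24, and each of these 3 means passed (22% called at 5 min, 34.9% at 10 min, 33.7% at 40 min). At 20 min the values 0.58 and 0.07 did not pass. The batch E value was the larger at 5 min and the batch B value at the 3 later times.

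Within the gene, YOS1 oligo 1 stood above the mean of YOS1 oligos 2 and 3 in KCl. The difference was 0.35 in wild type at 20 min (adjusted p 0.00419), 0.60 with TBB (adjusted p 0.00116) and 0.43 in hog1 (adjusted p 0.0378). This test passed for 42.5%, 26.8% and 17.2% of all oligos in those comparisons. The wild-type difference was 0.33 at 5 min and 0.37 at 10 min, which also passed (38.7% and 45.5% of all oligos), and with TBB at 5 min it was 0.51 (29.6%). YOS1 oligo 2 lay on the other side of 0 at 10 min in KCl, with values of -0.16, -0.16, -0.07 and -0.19. YOS1 oligo 3 stayed close to 0 in KCl at 20 min, with a mean of 0.02.

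DYN2 oligo 3 fell in KCl. The wild-type values were -0.09, -0.46 and -0.325 at 5 min and -0.25, -0.34, -0.21 and -0.49 at 10 min, all below 0. Their means were -0.29 (adjusted p 0.0174) and -0.32 (adjusted p 0.00165). At 20 min the values were 0.07 in batch A, -0.41 and -0.32 in batch G and -0.24 in batch H, with a mean of -0.22 ± 0.21 (SD, n = 4, adjusted p 0.0356). The batch A value stood apart, and the call was lost without either batch G replicate or the batch H replicate. At 40 min the values spread from -0.28 to 0.27 and did not pass.

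The other strains gave the same sign for DYN2 oligo 3 with 1 exception. In hog1 cells the values were -0.39 and -0.27 at 5 min, -0.36 and -0.42 at 10 min, -0.48 and -0.31 at 20 min and -0.33 and -0.37 at 40 min. The means at 10, 20 and 40 min passed, at -0.39, -0.40 and -0.35, beside 11.3%, 13.6% and 12.6% of all oligos called. The 20 min mean did not pass on either value alone. The edc2 values lay between -0.32 and -0.29 and the rrp6 values between -0.48 and -0.23. The ckb1ckb2 values were -0.19, -0.22, -0.27 and 0.09. Over the 37 KCl comparisons DYN2 oligo 3 was below 0 in 33, with a median of -0.29.

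The hog1 and wild-type values of DYN2 oligo 3 were not told apart. The difference at 20 min was -0.17 (95% interval -0.47 to 0.13). Within batch A it was -0.55, and within batch G 0.06. In LiCl at 20 min DYN2 oligo 3 read 0.03, -0.02 and 0.22, and in NaCl 0.05 and 0.09. The KCl minus LiCl difference was -0.30 (95% interval -0.57 to -0.04) and did not pass after adjustment (adjusted p 0.0646).

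DYN2 oligo 2 moved the other way from oligo 3 in several KCl groups, but with large differences between batches. In edc2 cells it read 0.46, 0.47, 0.46 and 0.69 from 5 to 40 min. In hog1 cells at 20 min it read 0.30 in batch A and -0.24 in batch G, on opposite sides of 0. In wild type it passed at 40 min only, with 0.37 in batch A, 0.11 and 0.04 in batch G and 0.39 in batch H (mean 0.23, adjusted p 0.0179, 34% of all oligos called). The single comparison with pre-treatment cells read 0.93. With KCl and TBB the values were 0.64 and 0.16 at 5 min and 0.48 and 0.12 at 10 min, whose means of 0.40 and 0.30 passed, and at 40 min the values were 0.48 and 0.49 (mean 0.48, adjusted p 0.000427, 23.4% called). At 20 min the same treatment gave 0.42 and -0.08. LiCl at 10 min read 0.15, 0.46 and 0.22 (mean 0.28, adjusted p 0.0122, 33.8% called). Over the 37 KCl comparisons DYN2 oligo 2 was above 0 in 28.

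**Figure D2:**
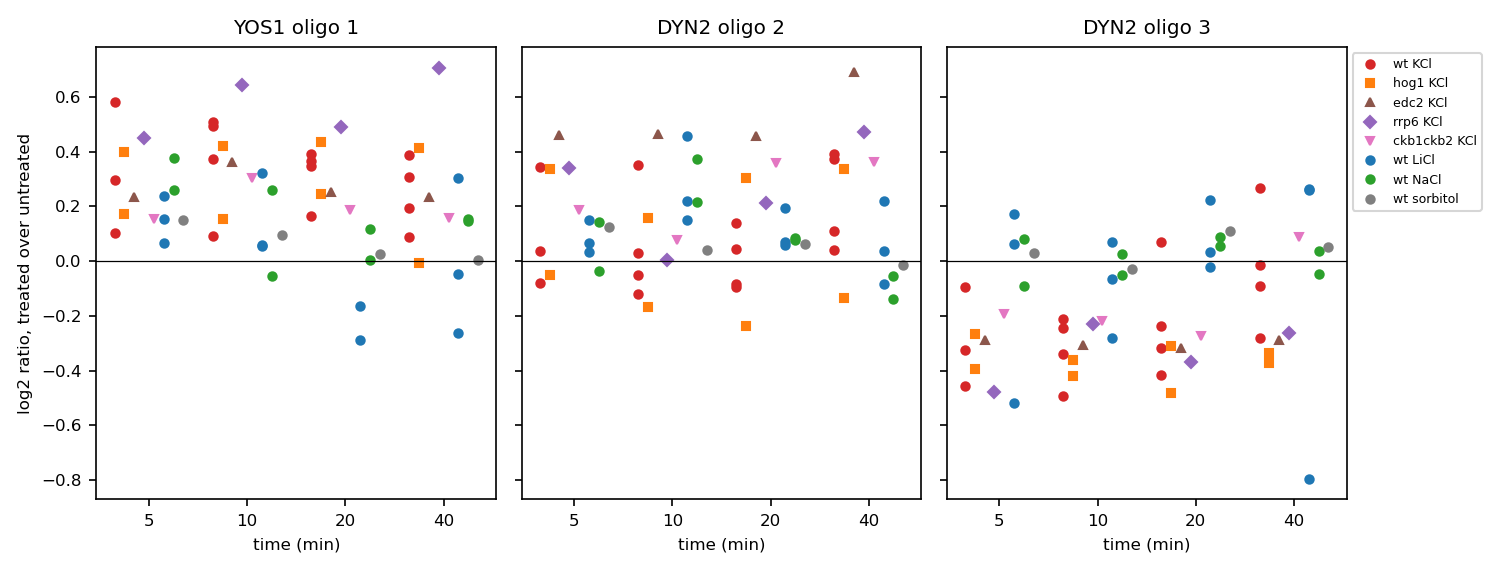
Log2 ratio of treated over untreated (mock treated) cells at 5, 10, 20 and 40 min for YOS1 oligo 1, DYN2 oligo 2 and DYN2 oligo 3, 1 mark per replicate. Colours and shapes give the strain and the salt or sorbitol. KCl marks lie mostly above 0 for YOS1 oligo 1 and mostly below 0 for DYN2 oligo 3, and the 20 min LiCl marks lie on the other side for YOS1 oligo 1.

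The TAD3 oligos gave little in salts. TAD3 oligo 2 read a mean of 0.06 in KCl at 20 min (n = 4) and was above 0 in 19 of 37 KCl comparisons. TAD3 oligo 3 read -0.29, -0.32 and -0.28 over the 3 replicates in LiCl at 10 min, which passed only against the other oligos of its gene (difference -0.41, adjusted p 0.04, 46.9% of all oligos). At 5 min the difference was also -0.41 (adjusted p 0.0449, 42.3%).

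TAD3 oligo 2 rose in rapamycin. At 5 min the 2 batch C replicates read 1.15 and 0.92, a mean of 1.04 (adjusted p 1.08e-07, 17% of all oligos called). At 10 min they read 1.06 and 0.80 (mean 0.93, adjusted p 5.5e-07, 20.5% called), and at 40 min 0.80 and 1.07 (mean 0.93, adjusted p 9.27e-08, 29.4% called). At 20 min the batch C values were 0.42 and 0.71 and the batch I value -0.01, with a mean of 0.37 ± 0.36 (SD, n = 3, adjusted p 0.0106, 38.9% called). The 2 batches did not overlap at that time, and the call was lost without either batch C value (means 0.35 and 0.20). The first of each pair came from arrays that lacked 18.4% to 47.9% of their spots, apart from 1 array of the 40 min pair at 0.336%. The second came from arrays that lacked at most 14.4%.

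The calls of TAD3 oligo 2 in rapamycin depend on which batch C replicates are used. The replicate left out for its unsettled direction read -0.13, -0.35, -0.21 and -1.06 at 5, 10, 20 and 40 min as labelled, the opposite sign to the others. With it used as labelled the means were 0.65 at 5 min, which passed, and 0.51, 0.23 and 0.27 at 10, 20 and 40 min, which did not. With its sign turned the means were 0.74, 0.74, 0.33 and 0.98, and all 4 passed. In ckb1ckb2 cells, from batch D, rapamycin over mock treated cells gave 0.12, 0.03, 0.08 and 0.33, all above 0 and all below the batch C values of 5 and 10 min. With 3AT added, rapamycin over pre-treatment wild-type cells gave 0.04 to 0.30.

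TAD3 oligo 2 stood above the other TAD3 oligos in rapamycin at 3 of the 4 times. The difference of oligo 2 from the mean of the other TAD3 oligos was 1.26 at 5 min, 0.75 at 10 min and 0.92 at 40 min, each past the threshold (17.5%, 25.9% and 39.4% of all oligos). TAD3 oligo 1 at 20 min read 0.81 and 0.29 in batch C and -0.12 in batch I, with a mean of 0.33 (adjusted p 0.00804). Without the 0.81, which came from arrays lacking 27.6% to 30.8% of their spots, the mean was 0.09. TAD3 oligo 3 read 2.24, 0.08 and -0.02 at 20 min (mean 0.77), and 0.03 without the 2.24. At 5 min it read -1.48 on arrays lacking 18.7% to 40.2% of their spots and 0.14 in the other replicate. At 20 min the calls of TAD3 oligos 1 and 3 rest on 1 pair of extracts.

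Among the other members in rapamycin, YOS1 oligo 1 fell at 5 min, with -0.40 and -0.54 (mean -0.47, adjusted p 0.0357, 17% called). DYN2 oligo 1 at 10 min read 2.47 in a replicate whose arrays lacked 18.4% to 47.9% of their spots and -0.23 in the other batch C replicate. Their mean of 1.12 passed (adjusted p 0.000329, 20.5% called), with the replicates on opposite sides of 0. It was the same without arrays lacking over 20% of their spots, which leaves 1 dye orientation of the 2.47 replicate. The array left out thus did not alter the 2.47, and the refit is no check on that value.

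TAD3 oligo 2 was also above 0 in treatments other than rapamycin. Wortmannin at 20 min gave 0.42 and 0.41 (mean 0.42, adjusted p 0.0351, 21% called) and at 40 min 0.12 and 0.65 (mean 0.39, adjusted p 0.0405, 30.2% called). At 10 min it gave -0.05 and 0.55, which did not pass. With batch as a random block the means were 0.33 at 20 min and 0.30 at 40 min and neither passed, and the 20 min mean did not pass on either value alone. Amino acid depletion at 40 min gave 0.90 in batch A and 0.18 in batch B (mean 0.54, adjusted p 0.00307, 30.1% called). Nitrogen depletion with 3AT at 40 min gave 0.65 and 0.52 (mean 0.59, adjusted p 0.00698), where 6.86% of all oligos were called. Nitrogen depletion alone gave -0.14 to 0.21.

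Single comparisons without replicates extended the range for TAD3 oligo 2. DTT, which reduces disulfide bonds, gave 0.52, 0.72, 0.23 and 0.52 at 1 mM from 5 to 40 min. At 10 mM it gave -0.09, 0.51, 0.41 and 0.44. TBB alone gave the opposite sign at all 4 times, with -0.36, -0.37, -0.27 and -0.31. The 12 values of 3AT alone ran from -0.37 to 0.29.

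YOS1 oligo 3 fell in several of the treatments in which TAD3 oligo 2 was above 0. In rapamycin it read -0.01 and -0.83 at 5 min, -0.19 and -0.73 at 10 min, and -0.32 and -0.52 at 40 min. At 20 min it read -0.32 and -0.80 in batch C and -0.02 in batch I (mean -0.38, adjusted p 0.0135). The means at 10 and 40 min were -0.46 and -0.42 and passed, and that at 5 min, -0.42, also passed, at the edge of the threshold (adjusted p 0.05 after rounding). The replicate of unsettled direction read 0.21, 0.44, 0.49 and 0.33 as labelled, all above 0. With it used as labelled the means lay between -0.21 and -0.16 and none passed, and with its sign turned they were -0.35, -0.45, -0.40 and -0.39, all but the 5 min mean past the threshold.

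In wortmannin YOS1 oligo 3 gave close replicates at 20 min, -0.45 and -0.46 (adjusted p 0.0251). The wortmannin calls of both TAD3 oligo 2 and YOS1 oligo 3 were lost when the unsettled batch C extracts were fitted as labelled, with the means themselves unchanged. For YOS1 oligo 3 they were also lost with batch as a random block (-0.37 at 20 min and -0.36 at 40 min), and at 20 min on either value alone. At 40 min it gave -0.66 and -0.22 (mean -0.44, adjusted p 0.0231) and at 10 min -0.36 and -0.41, which did not pass. With 3AT and KCl at 40 min it gave -0.42 and -0.53 (adjusted p 0.0133). In amino acid depletion the batches split: batch A read -0.575, -0.53, -0.37 and -0.77 from 5 to 40 min, and batch B 0.36, 0.19, 0.02 and 0.01. Nitrogen depletion split as well, at 0.47 to 0.57 in 1 batch C replicate and -0.21 and 0.01 in the other. Across the same group means the correlation of YOS1 oligo 3 with TAD3 oligo 2 was -0.52, and -0.57 without batch B. These groups share arrays, so the correlation is a description.

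YOS1 oligos 2 and 3 moved apart within the gene in several of these treatments. Against the mean of the other YOS1 oligos, oligo 3 stood at -0.45 in rapamycin at 20 min (adjusted p 0.0168) and oligo 2 at 0.51 (adjusted p 0.0153), where 29.6% of all oligos passed. In wortmannin at 40 min oligo 3 stood at -0.52 (adjusted p 0.0216, 35.4% of all oligos). In glucose depletion it stood at -0.99 at 10 min, -0.61 at 20 min and -0.63 at 40 min (31.1%, 22.3% and 27.9%). With 3AT and KCl it stood at -0.575 at 5 min and -1.18 at 10 min (20.8% and 25.2%). The last 2 treatments include the batch B values of oligo 2 described next, which enter the mean that oligo 3 is set against.

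**Figure D3:**
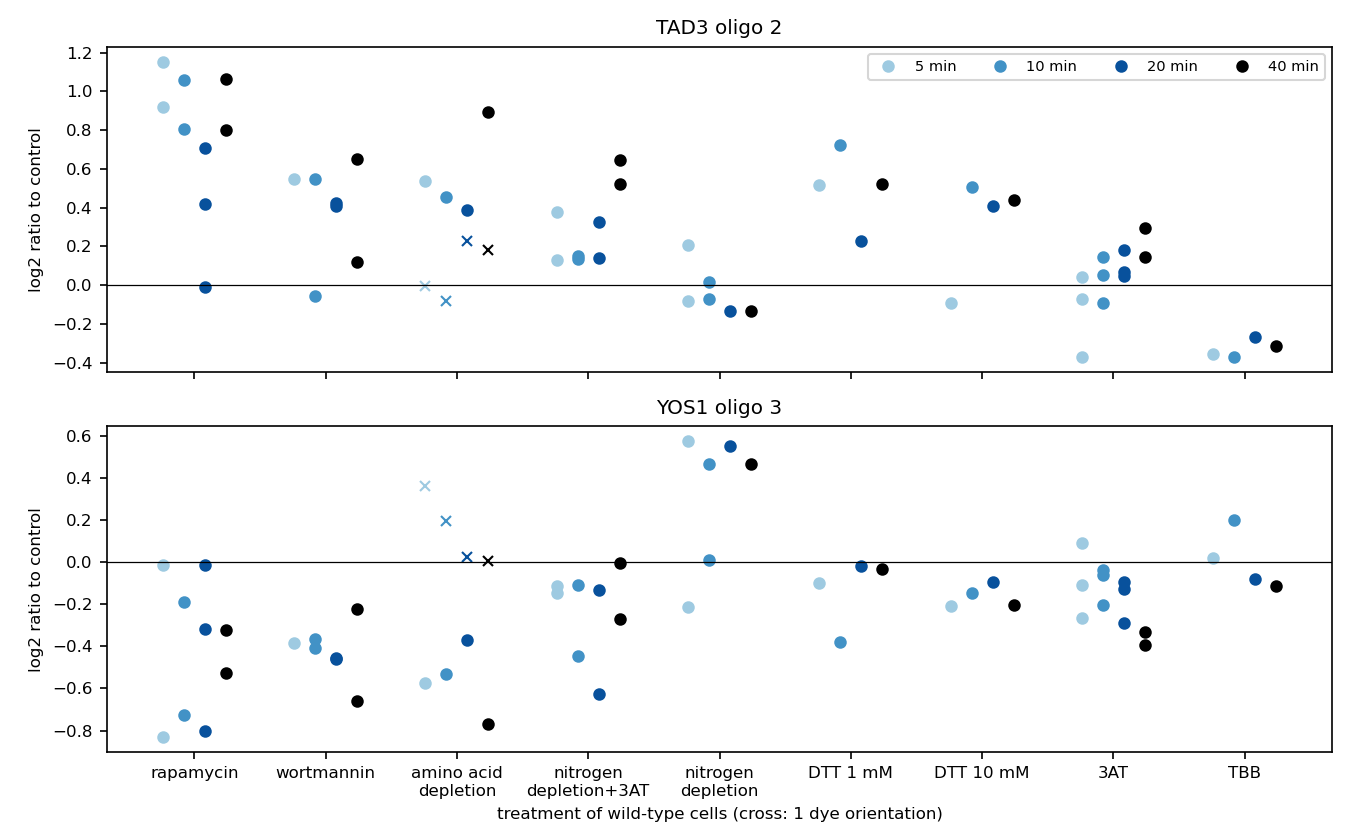
Log2 ratio to control of TAD3 oligo 2 (upper panel) and YOS1 oligo 3 (lower panel) in wild-type cells under 9 treatments, 1 mark per replicate, shaded by time. Crosses are values from a single dye orientation, and the replicates of unsettled direction are not drawn. In rapamycin and wortmannin most marks lie above 0 for TAD3 oligo 2 and all lie below 0 for YOS1 oligo 3.

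In glucose depletion and in 3AT with KCl, batch B stood far from the other batch for some oligos. The batch B arrays of glucose depletion lacked 28.9% to 31.9% of their spots, and those of 3AT with KCl at 10, 20 and 40 min 20.3% to 29.9%. Refits required at least 3 copies or left out arrays lacking over 20% of their spots. Beyond these refits, the part of the missing spots in the values was not tested. YOS1 oligo 2 in glucose depletion read 3.83 in batch B and 0.20 in batch F at 5 min, a mean of 2.01 (adjusted p 1.09e-09, 29.1% of all oligos called). The later pairs were 2.28 and -0.04 at 10 min, 1.24 and 0.15 at 20 min, and 0.93 and 0.16 at 40 min. Without batch B the 5 min mean of YOS1 oligo 2 did not pass. With batch B included, the means at 10 and 20 min were 1.12 and 0.69 and passed (adjusted p 0.000372 and 0.0341). DYN2 oligo 1 read 2.08 in batch B and 0.12 in batch F at 5 min (mean 1.10, adjusted p 0.000234). In each of these pairs batch B lay far above batch F.

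The same 2 oligos stood out in 3AT with KCl. DYN2 oligo 1 read 1.91 in batch B and -0.05 in batch E at 10 min (mean 0.93, adjusted p 0.00161), and 1.45 and 0.04 at 20 min (mean 0.74, adjusted p 0.0152, 31.6% called). The 1.91 dropped out when at least 3 copies were required, which left the batch E value of -0.048 at 10 min. YOS1 oligo 2 read 1.37 and 0.05 at 20 min (mean 0.71, adjusted p 0.0295). At 10 min TAD3 oligo 3 read -1.86 in batch B and -0.10 in batch E (mean -0.98, adjusted p 8.85e-05). DYN2 oligo 2 at 10 min read 0.65 and 0.33, the same side of 0 (mean 0.49, adjusted p 0.000221). In amino acid depletion YOS1 oligo 2 read 0.61 to 1.16 in batch B and -0.04 to 0.02 in batch A.

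Both oligos have large dye effects. The mean Cy5 over Cy3 effect, taken from extracts hybridised both ways, was 0.45 for YOS1 oligo 2 and 0.36 for DYN2 oligo 1, the highest of the 9. It was already subtracted from the values above. On the batch B array of glucose depletion at 5 min the values of all oligos followed the dye effect with a slope of 3.88 and a correlation of 0.67, and 0.55 remained after subtraction. For extracts hybridised both ways that correlation lay between -0.33 and 0.27. With the dye effect scaled to that array, YOS1 oligo 2 still read 2.52 there and DYN2 oligo 1 1.06. The part of the dye in these calls was not tested further. Without batch B, YOS1 oligo 2 read 0.20 at 5 min and -0.04 at 10 min in glucose depletion, and DYN2 oligo 1 read -0.05 in 3AT with KCl at 10 min.

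The other members differed in how far the batches stood apart in glucose depletion. YOS1 oligo 1 at 5 min read 1.43 in batch B and 0.08 in batch F (mean 0.76, adjusted p 0.00013). DYN2 oligo 2 read 0.96 and 0.22 at 5 min (mean 0.59, adjusted p 1.31e-05) and 0.69 and 0.17 at 10 min (mean 0.43, adjusted p 0.0013). TAD3 oligo 2 at 10 min read 0.57 and -0.13, on opposite sides of 0, and did not pass. Closer pairs were seen for DYN2 oligo 3 and TAD3 oligo 1. DYN2 oligo 3 at 5 min read 0.53 and 0.29 (mean 0.41, adjusted p 0.00718). TAD3 oligo 1 at 20 min read -0.50 and -0.24 (mean -0.37, adjusted p 0.018, 32% of all oligos called) and at 5 min -0.52 and -0.21 (mean -0.37, adjusted p 0.0203). In these pairs both batches lay on the same side of 0, and the 20 min value of TAD3 oligo 1 did not pass without batch B.

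**Figure D4:**
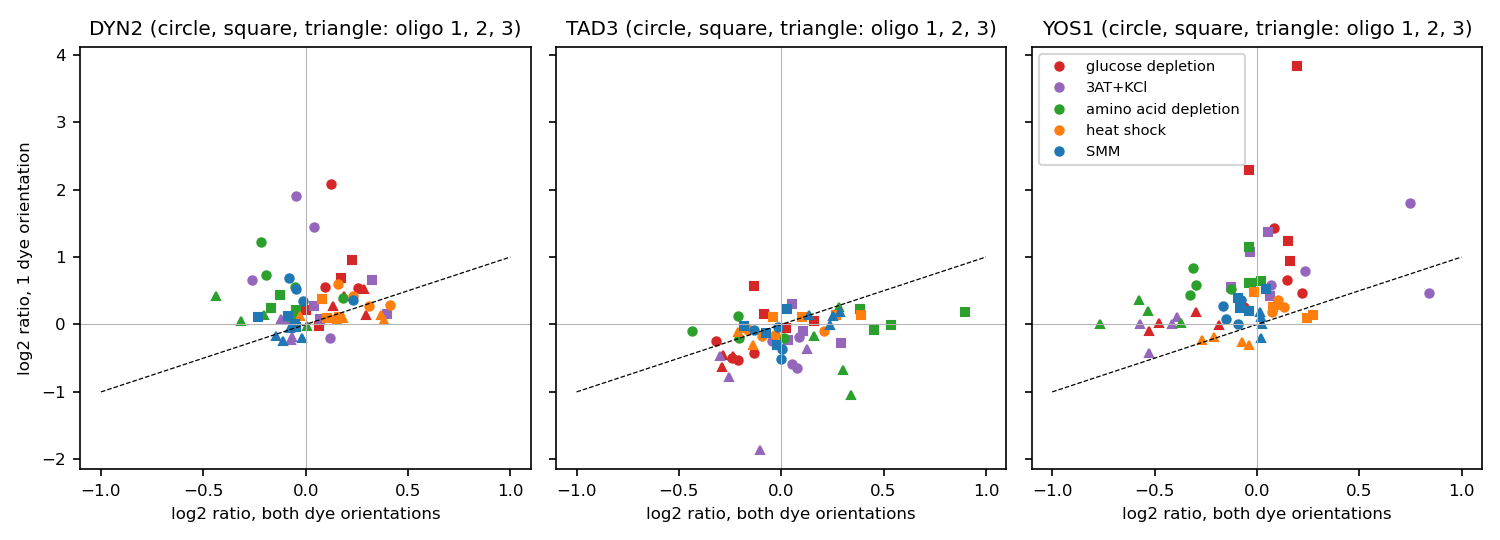
Log2 ratio in batch B, hybridised in 1 dye orientation, against the same treatment and time in a batch hybridised in both, for the 3 oligos of each gene. The dashed line marks equal values, and the axes cover different ranges. YOS1 oligo 2 in glucose depletion at 5 min lies farthest above the line, at 3.83 against 0.20, and DYN2 oligo 1 reaches 2.08 against 0.12. DYN2 oligo 1 in 3AT with KCl at 40 min lies below it, at -0.20 against 0.12.

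Several treatments left all 9 oligos below the threshold at 20 min. This was so for LiCl (38.8% of all oligos called), NaCl (19.8%), heat shock (28.3%), 3AT (13.1%), SMM (9.95%), amino acid depletion (23.8%) and 3AT with TBB over 3AT (12.8%). It was also so for inositol depletion (0.206%), nitrogen depletion with 3AT (0.549%), and histidine depletion in his3 (1.85%) and HIS3 repaired cells (0%). By limma's unadjusted p under 0.05, 1 of the 9 oligos passed in amino acid depletion, 1 in nitrogen depletion with 3AT and 1 in HIS3 repaired cells, and 0 in each of the others. In heat shock, counting 4 batch F values set against untreated cells of time 0, DYN2 oligos 1 and 2 were above 0 in 12 of 12 values, with medians of 0.27 and 0.09. The batch B values among them came from 1 dye orientation. For DYN2 oligo 1 they ran from 0.27 at 20 min to 0.60 at 5 min, or from 0.18 to 0.32 with the dye effect scaled. YOS1 oligo 3 was below 0 in 12 of 12, with a median of -0.20. Their means did not pass in limma's test at 20 min, where each group had 2 or more replicates. The 12 values include several times of a course, and the share of all oligos with 1 sign in all 12 was not determined. In histidine depletion none of the 9 passed in the difference of his3 and HIS3 repaired cells (0.412% of all oligos did, and none of the 9 had an unadjusted p under 0.05), the widest interval being that of YOS1 oligo 2, at -0.63 to 0.42.

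The deletion strains were also compared with wild type directly, in 13 comparisons each for rrp6 and ckb1ckb2 under the same treatment. TAD3 oligo 2 was higher in ckb1ckb2 cells in 13 of 13, between 0.36 and 1.00, with a median of 0.61. It ranked 11 of 1457 oligos by that median, and 1.78% of all oligos were higher and 2.47% lower in all 13. The medians were 0.74 in 3AT, 0.79 in KCl and 0.66 in rapamycin, with 4 comparisons each. Before any treatment it read 0.61 in ckb1ckb2, 0.83 in ckb1 and 0.73 in ckb2 cells, with 1 comparison each. The comparisons share the strain and, within a treatment, a time course, and a strain of this kind may stand for 1 clone, so no test was made.

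The other oligos were nearer 0 in ckb1ckb2 cells. TAD3 oligo 1 had a median of -0.06 and TAD3 oligo 3 of -0.17, the opposite side from TAD3 oligo 2. YOS1 oligo 3 was below 0 in 11 of 13, with a median of -0.20, and DYN2 oligo 3 above 0 in 11 of 13, with a median of 0.15. TAD3 oligo 2 in 3AT over pre-treatment cells of the same strain read 0.36 to 0.44 in ckb1, 0.14 to 0.53 in ckb1ckb2 and 0.01 to 0.23 in ckb2 cells. The ckb1 values all lay above the ckb2 values.

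In rrp6 cells the 3 DYN2 oligos split. DYN2 oligo 2 was above 0 in 11 of 13 comparisons, between -0.11 and 0.61, with a median of 0.29. DYN2 oligo 3 was below 0 in 12 of 13, with a median of -0.20, and DYN2 oligo 1 had a median of -0.04. YOS1 oligo 2 was lower in all 13, between -0.29 and -0.04, with a median of -0.16, where 6.25% of all oligos were lower and 4.53% higher in all 13. TAD3 oligo 2 ran from -0.64 to 0.23. DYN2 oligo 2 ranked 182 of 1457 by its median, so many oligos read higher in this strain.

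**Figure D5:**
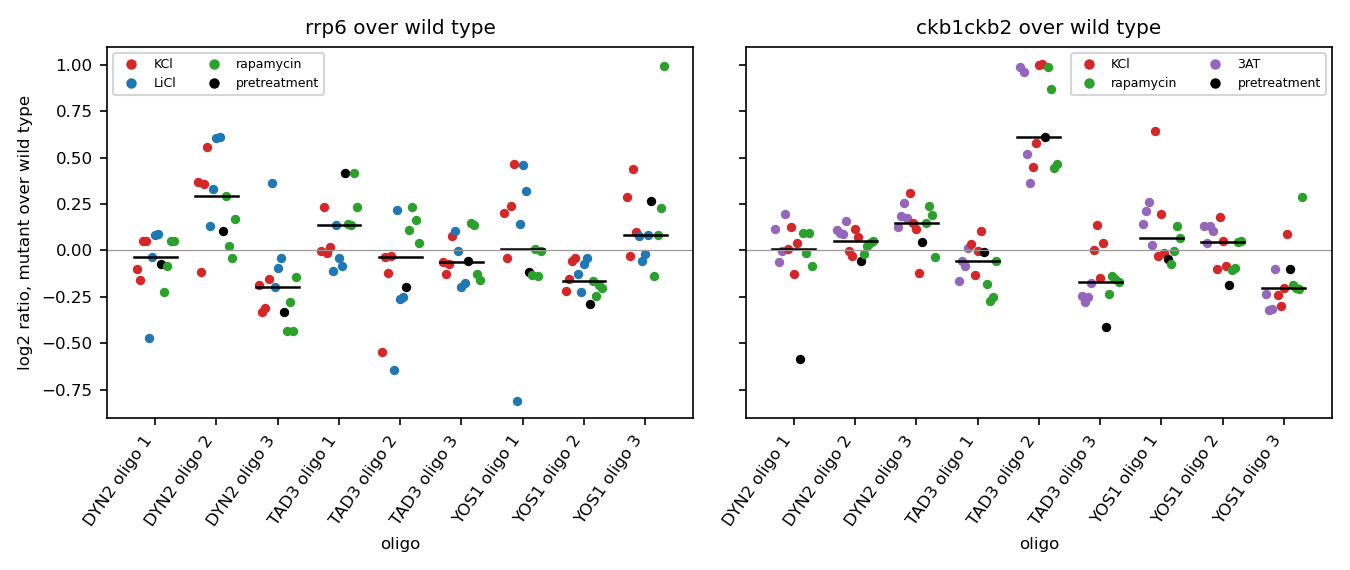
Log2 ratio of rrp6 (left) and ckb1ckb2 (right) over wild type for the 9 oligos, 1 point per comparison and 13 per oligo, coloured by treatment, with the median as a bar. In ckb1ckb2 cells all TAD3 oligo 2 points lie between 0.36 and 1.00. In rrp6 cells DYN2 oligo 2 points lie mostly above 0 and DYN2 oligo 3 points mostly below.

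A further 4 genes with 2 introns serve as a comparison. They are RPL7A and RPL7B, which encode near-identical copies of a large-subunit ribosomal protein, EFM5, which encodes a methyltransferase of translation elongation factor 1A, and HMRA1 of the silent mating-type cassette. Their 12 oligos passed in 29 of 216 tests at 20 min (13.4%, beside 19.3% of all tests), 3 higher and 26 lower. RPL7B took 16 and RPL7A 9, all lower. RPL7B oligo 3 read -2.26 in LiCl and -1.47 in heat shock. Signals of RPL7A and RPL7B may cross-hybridise and are uncertain, as is HMRA1, which shares sequence with the active mating-type locus. EFM5 oligo 3 was 0.34 in KCl, -0.30 in LiCl and 0.51 in KCl with TBB. HMRA1 oligo 1 read 0.57 in KCl.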

How the data were processed

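Total RNA was extracted with acid phenol, copied into amino-allyl cDNA and coupled to Cy3 or Cy5, per the labels' protocols. The authors deposited, per the file headers, 1 log ratio per spot, read here as log2 of channel 1 over channel 2. Its base, background correction and normalization are not given in the sources used here. The number of arrays limits the precision, and no spot was filtered on brightness. All 593 per-array columns were used.

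The 6 copies of an oligo were averaged, and its mean dye effect was subtracted. Both orientations of a pair of extracts were averaged into 1 replicate, with the sign turned where the labels put treated RNA in channel 2. Group means were tested against 0 with limma 3.58.1 (lmFit, eBayes; R 4.3.3) in 1 fit of 76 groups with 109 residual degrees of freedom. A group of 2 replicates therefore borrows its error from all groups. Tests were two-sided, Benjamini-Hochberg adjusted over 1457 oligos per comparison, or 710 for differences within a gene. A called oligo has an adjusted p under 0.05. The fit was tested on simulated data.

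All oligos of the members entered the fits, and those called are named. The members and lists were chosen with earlier results of these data known. Likeness was Pearson's r over group means. Alternatives covered copies, missing spots, dye correction, centring, direction of batch C, samples fitted, batch as a block, eBayes, noisy oligos and replicates left out. Leaving out batch B and scaling the dye effect were added after seeing the data.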

Additional observations from a re-analysis of the deposited data

Results flagged for a closer look

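A total of 5 replicate values stood far from the others of their group, among 99 groups of 4 values examined. Chance gives about 1 in 20, which is near the share found. All were in histidine depletion, to which most of the groups with 4 values belong, the rest being wild-type KCl. TAD3 oligo 2 read 0.47 in a batch C replicate of HIS3 repaired cells at 40 min, and the nearest of the other replicates read 0.06. DYN2 oligo 3 read -0.20 in a batch C replicate of HIS3 repaired cells at 5 min, with the nearest at 0.02. In his3 cells at 20 min, a batch C replicate read -0.22 for TAD3 oligo 1 (nearest -0.04) and -0.14 for YOS1 oligo 2 (nearest 0.03). DYN2 oligo 2 read -0.098 in a batch G replicate of his3 cells at 5 min, with the nearest at -0.04. None of these groups passed limma's test.

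YOS1 oligo 1 differed between KCl and LiCl at 20 min by 0.54 on the log2 scale, with means of 0.32 (n = 4) and -0.23 (n = 2). The difference did not pass without either LiCl replicate.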

How the results depend on the processing

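The 14 calls at 20 min became 8 without arrays lacking over 20% of their spots, 9 with the unsettled batch C extracts used as labelled and 7 with only the groups of a comparison fitted, and 11 to 16 with a replicate left out. The 41 calls at the other times became 14 with only the comparison's groups fitted, and the 11 differences within a gene became 6 with batch C as labelled, or 8 to 13 with a replicate left out. The single call of KCl against LiCl became 2 with at least 3 copies, 2 without arrays lacking many spots and 2 with batch as a block, and 0 to 2 with a replicate left out. In wild-type KCl at 20 min, 2 calls became 1 with only its groups fitted, 1 with the batch block and 0 to 1 with a replicate left out. In LiCl, 0 became 1 with the median of copies, 1 without batch B and 1 with the dye effect scaled. In rapamycin, 4 became 1 without arrays lacking many spots, 1 with batch C as labelled, 0 with only its groups, 2 without the noisiest oligos, 7 without batch B and 1 to 4 with a replicate left out. In SMM 0 became 2 with only its groups, and in amino acid depletion 0 became 1 without arrays lacking many spots. In wortmannin 2 became 0 with batch C as labelled, with the block and without either replicate. In glucose depletion 2 became 0 with only its groups or without batch B, and 0 to 2 with a replicate left out. In 3AT with KCl 2 became 1 with at least 3 copies, with the block or without the noisiest oligos, 0 with only its groups, without batch B or with the dye scaled, and 0 to 4 with a replicate left out. The calls of KCl with TBB (1) and hog1 (1) fell to 0 without either replicate, and hog1 gave 2 without batch B. DYN2 oligo 1 in 3AT with KCl at 10 min reversed to -0.048 with at least 3 copies and without batch B, and YOS1 oligo 2 in glucose depletion at 10 min to -0.037 without batch B. Of 906 values of 67 named results under alternatives, 719 kept direction and call, 184 kept direction but not the call, and 3 reversed. Where a setting leaves out arrays or samples, fewer values are tested, and otherwise the cause was not tested. No paired analysis was possible because replicate numbers were given in accession order and pair no samples, so the batch of the arrays served as the block.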

Other observations

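The genes around YOS1 in transport from the endoplasmic reticulum to the Golgi were measured for 4 of 15 listed genes, with 12 oligos. In KCl at 20 min 5 of these rose and 1 fell, with a median of 0.08 beside 0.00 over all oligos and 37% of all oligos called. ERV41 oligos 3 and 2 (cargo receptor of coated vesicles) read 0.78 and 0.55, and SAR1 oligo 2 (the GTPase that starts vesicle formation) 0.52. The same 3 oligos were also higher in LiCl, at 0.26, 0.29 and 0.34. In LiCl and in heat shock 4 oligos of the list rose and 0 fell (38.8% and 28.3% of all oligos called). In 3AT 0 rose and 2 fell (13.1% called), and other treatments gave calls as well. BOS1, a vesicle SNARE, split within the gene, with 0.19 for oligo 1 and -0.21 for oligo 3. TAD2, the partner of TAD3, was called in heat shock (0.37, 28.3% of all oligos called) and in his3 histidine depletion (-0.30, 1.85% called). TAD1, another tRNA deaminase, was called in KCl (0.34, 37% called) and NaCl (0.50 ± 0.47, SD, n = 2, 19.8% called). NSP1, NUP159 and NUP82, nucleoporins that work with DYN2, gave 3 lower calls of 5 oligos in glucose depletion at 20 min, with a median of -0.43, where 32% of all oligos were called. The same list gave 2 lower calls in 3AT with KCl (31.6% of all oligos called). It gave 1 lower call each in LiCl (38.8%), heat shock (28.3%) and rapamycin (38.9%). Higher calls were 1 in KCl (NSP1 oligo 1, 0.25, 37% called) and 1 in 3AT (NUP159, 0.30, 13.1% called). VMA10 was the 1 measured gene of 19 listed for the vacuolar proton pump, with 0.33 for oligo 2 and -0.65 for oligo 3 in KCl (37% called). Oligo 2 was also called in SMM (-0.42, 9.95% called), amino acid depletion (-0.43, 23.8%), 3AT with KCl (-0.27, 31.6%) and KCl with TBB (0.50, 23.7%). Oligo 3 was also called in 3AT with TBB over 3AT (0.71, 12.8%). None of the 7 listed partners of SUS1 was analysed here.

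The closest pattern to YOS1 oligo 1 over the group means was RUB1 oligo 2 (r 0.85, also 0.85 without batch B), followed by MUD1 oligo 1 (0.76) and LSM2 oligo 3 (0.73). For DYN2 oligo 3 they were YNCC0009C (0.76), RPO26 oligo 1 (0.76) and RPL21A oligo 1 (0.75). For DYN2 oligo 2 they were YRB2 (0.73), SUF10 (0.73) and YNCB0013W (0.71), and for DYN2 oligo 1 RAD14 oligo 3 (0.75), GAL3 (0.72) and HMI1 (0.67). TAD3 oligo 2 was closest to TOM1 (0.65). YOS1 oligo 2 was closest to CHA4 (0.82), which fell to 0.56 without batch B. YOS1 oligo 3 was closest to RPL23A oligo 2 (0.63). The groups share arrays, controls and dye effects, and these values are descriptions.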
